A study of Mus musculus with 10 samples.

Results

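The nuclear genes for the subunits of respiratory complexes II, III, IV and V were followed in cultured B cell precursors that carried 1 or 2 intact alleles of Hspa9. Genes were taken by name: a probe set counted if the platform annotation gave it a single symbol that was Sdha, Sdhb, Sdhc, Sdhd or Cyc1 or began with Uqcr, Cox4, Cox5, Cox6, Cox7, Cox8 or Atp5, and each symbol was represented by the probe set whose 10-array mean was highest. This gave 47 genes of 19938 on the array, with 4 in complex II, 9 in complex III, 17 in complex IV and 17 in complex V. The naming rule uses no measured difference. Cox7c, read only by probe sets that also name another gene, is not among them. The heterozygous group was 5 Hspa9+/- mice and the wild type group 5 Hspa9+/+ littermates. Bone marrow of each mouse was cultured separately for 7 days in M3630 methylcellulose, which supports colonies of B cell precursors (CFU-PreB), and B220+ cells of the colonies were sorted for RNA. RNA was amplified with the NuGEN PicoSL Ovation kit and read on Mouse Gene 1.0 ST arrays, 1 array per mouse. No treatment was listed for either group. The sources used here do not give the strain, sex or age of the mice or the kind of Hspa9 allele. B220 was the only sort marker named, and it is also carried by plasmacytoid dendritic cells.

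The respiratory chain sits in the inner mitochondrial membrane. Complex II takes electrons from succinate, complex III passes electrons from ubiquinol to cytochrome c, complex IV hands them to oxygen, and complex V uses the resulting proton gradient to make ATP. Complex II is encoded wholly in the nucleus, whereas complexes III, IV and V also contain subunits encoded by mitochondrial DNA. Hspa9 encodes mortalin, the matrix Hsp70 chaperone, which pulls imported precursor proteins into the matrix and takes part in the assembly of iron-sulfur clusters, the cofactors of Sdhb in complex II and of Uqcrfs1 in complex III.

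Values are RMA log2 units, so a difference of 1 is a doubling of signal, and every difference subtracts the wild type mean from the heterozygous mean (n = 5 arrays per genotype). They were tested with limma over 14953 genes whose mean exceeded the 25th percentile (4.52), with Benjamini-Hochberg adjustment over all of them. Hspa9 itself was at 9.52, 8.92, 9.30, 9.21 and 8.97 in heterozygous arrays, against 9.49, 9.57, 10.36, 10.17 and 9.99 in wild type arrays, a difference of -0.73 (SE 0.185; exact permutation p = 0.0159, limma adjusted p = 0.345 over all genes). The arrays overlapped, since heterozygous 1 lay above wild type 1. Of 12 B lineage markers 11 were measured, all above the filter, and their mean ran over 9.80 to 10.29 in heterozygous and 10.26 to 10.45 in wild type arrays. Markers of monocytes and macrophages, 15 of 16 above the filter and only Cd163 not, varied far more, with means of 6.73 to 9.52 in heterozygous and 5.43 to 9.04 in wild type arrays. Heterozygous 2 and wild type 1 were the highest arrays in them. In such sorted bulk RNA, fewer cells of a type and less RNA per cell cannot be told apart.

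No gene of complexes II to V passed the threshold: 0 of 46 tested genes had a limma adjusted p under 0.05, as did 0 of 14953 genes overall (background 0.0%). The smallest adjusted p was 0.349, for Cox6b2. Before adjustment 2 genes had a p under 0.05, Cox6b2 and Atp5g1, both higher in heterozygous arrays. That is 4.35% of the genes tested, against 11.0% of all genes (6.79% higher and 4.25% lower). The genotypes did not overlap for 1 gene, Cox5a, higher in heterozygous arrays, where 2.28% of all genes did not overlap and 1.47% did so in that direction. Most differences were small and above 0. Of the 46 genes, 38 had a higher heterozygous mean and 8 a lower one, 82.6% higher against 61.3% of all genes. The same 61.3% is the background for the counts of higher genes by complex and by list below. The split of the 46 depended on the scaling. It was 33 higher and 13 lower after quantile normalization and 32 higher and 14 lower after cyclic loess. Those scalings moved the median of all genes to 0.014 and 0.010. The median difference of the 46 was 0.13, beside 0.058 over all genes tested, and 31 of the 46 lay above that value. Under quantile normalization and cyclic loess 32 and 31 of the 46 lay above the median of all genes in the same fit. Over the 40 genes with a mean above 8.5 the median was 0.12, beside 0.019 over the 2268 genes of the array above that level. The intervals set limits on the size: for 37 of 46 genes the 95% interval of the difference lay within 0.5 of 0 on the log2 scale, which is a factor of 1.41 either way. The other 9 were Uqcr11, Uqcrq, Uqcrc1, Cox6a2, Cox6b2, Cox7a1, Cox8b, Atp5d and Atp5g1. Cox7b2, with a mean of 3.37, was under the filter and was not tested.

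**Figure D1:**
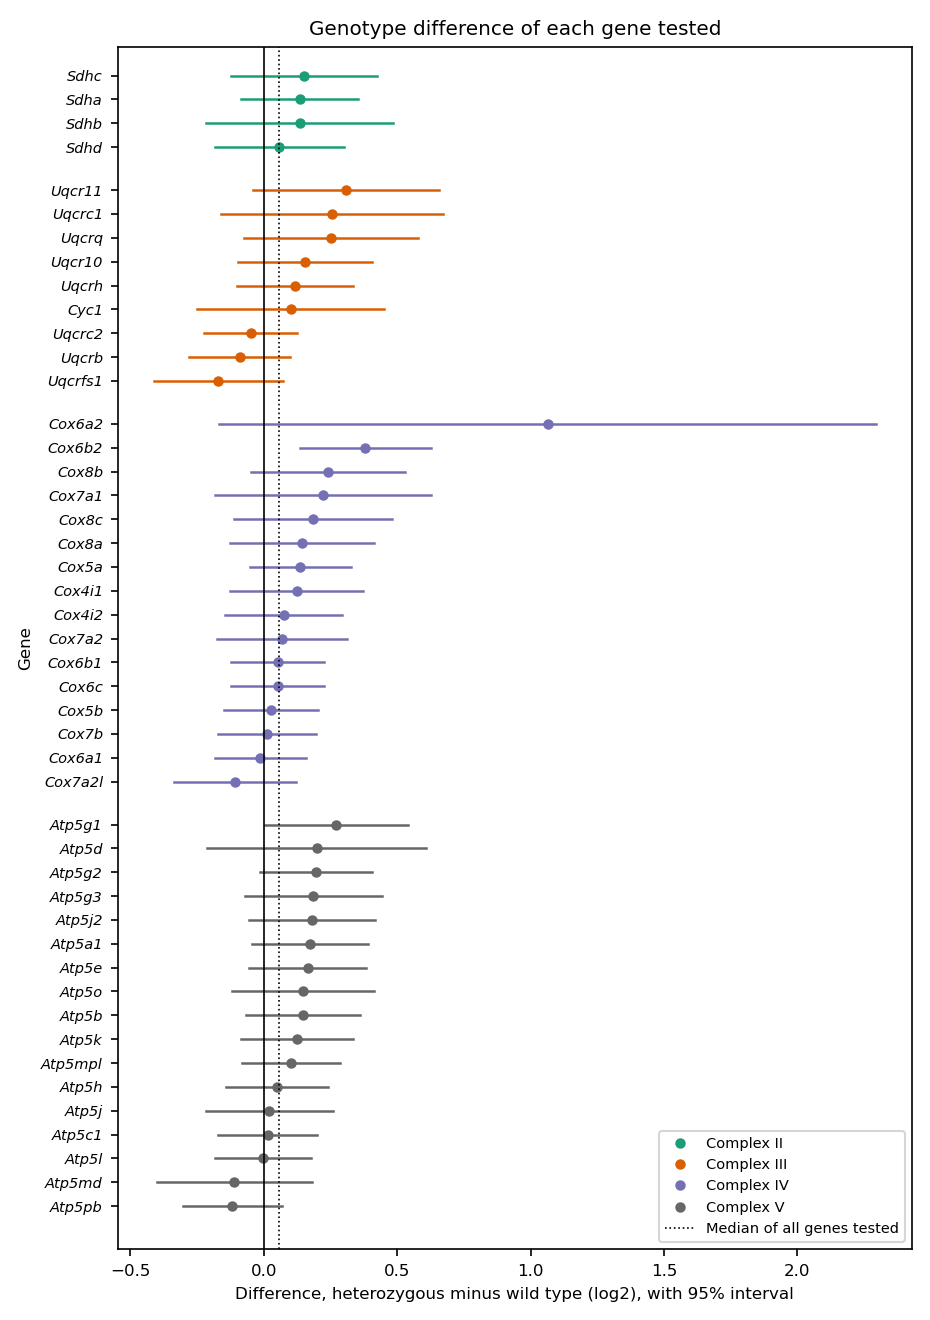
Difference of each of the 46 tested genes, heterozygous minus wild type, on the log2 scale (x axis) with its 95% limma interval, by complex (colours), with a dotted line at the median of all genes tested, 0.058. Intervals lie above 0 for Cox6b2 and Atp5g1 and span 0 for the other 44 genes.

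Nuclear genes of the respiratory chain are known targets of the transcription factor NRF1 (encoded by Nrf1) and of GABP, an ETS factor whose DNA-binding subunit is encoded by Gabpa. The 250 bases before the start site were therefore read from RefSeq (GRCm38.p6) for the 35 genes that the table covers; it has no entry for Sdhc, Cyc1, Uqcrb, Uqcrc2, Uqcrq, Cox4i1, Cox4i2, Cox6a2, Cox6c, Cox8c, Atp5a1 and Atp5mpl. The NRF1 motif, the letters GCGCA then any base then GCGC on either strand, were found in 7 of 35 genes (20.0%), against 4.23% of all 27025 genes of the table and 5.84% of its protein-coding ones. The letters CCGGAAG, the core of the GABP motif on either strand, were found in 9 of 35 (25.7%), against 7.83% and 10.2%. The motifs do not overlap where both occur in the windows printed. NRF1 letters were found before Sdha, Sdhd, Cox6a1, Atp5c1, Atp5g2, Atp5h and Atp5k, GABP letters before Sdhd, Uqcr11, Uqcrh, Cox6a1, Cox6b1, Atp5e, Atp5h, Atp5j and Atp5l. Matches are a description of these letters, not of binding. The windows below end at the base before the start site and are shown, 5′ to 3′ on the gene's strand with motif matches in capitals, for the gene of smallest p in each complex and for Cox6a1 and Atp5g2, to set genes with a match beside genes without.
Sdha, chr13:74350241-74350490, minus strand: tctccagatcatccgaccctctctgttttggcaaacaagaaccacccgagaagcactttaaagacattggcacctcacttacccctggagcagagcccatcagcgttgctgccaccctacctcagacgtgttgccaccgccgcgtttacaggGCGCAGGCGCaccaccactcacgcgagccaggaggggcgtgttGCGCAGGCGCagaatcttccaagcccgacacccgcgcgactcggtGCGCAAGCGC
Uqcr11, chr10:80406822-80407071, minus strand: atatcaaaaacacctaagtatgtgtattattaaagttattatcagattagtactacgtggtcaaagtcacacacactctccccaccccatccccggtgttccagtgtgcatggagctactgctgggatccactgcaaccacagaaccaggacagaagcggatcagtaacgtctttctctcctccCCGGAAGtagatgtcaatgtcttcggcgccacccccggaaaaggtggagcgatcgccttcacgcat
Cox6b2, chr7:4753095-4753344, minus strand: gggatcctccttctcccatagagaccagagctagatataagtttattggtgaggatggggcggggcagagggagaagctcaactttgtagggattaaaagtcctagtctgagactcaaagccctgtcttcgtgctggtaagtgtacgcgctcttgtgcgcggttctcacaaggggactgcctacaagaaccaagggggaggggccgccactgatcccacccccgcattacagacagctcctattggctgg
Cox6a1, chr5:115348959-115349208, minus strand: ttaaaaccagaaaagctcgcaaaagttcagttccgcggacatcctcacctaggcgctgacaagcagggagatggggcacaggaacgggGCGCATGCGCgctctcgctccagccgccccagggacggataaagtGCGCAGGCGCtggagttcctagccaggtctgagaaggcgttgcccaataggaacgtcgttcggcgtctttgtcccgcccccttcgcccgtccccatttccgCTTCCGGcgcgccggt
Atp5g1, chr11:96075632-96075881, minus strand: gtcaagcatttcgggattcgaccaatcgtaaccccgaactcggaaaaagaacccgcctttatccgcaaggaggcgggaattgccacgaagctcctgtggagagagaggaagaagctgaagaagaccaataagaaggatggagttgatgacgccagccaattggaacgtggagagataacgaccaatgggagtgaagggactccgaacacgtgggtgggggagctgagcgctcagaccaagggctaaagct
Atp5g2, chr15:102671048-102671297, minus strand: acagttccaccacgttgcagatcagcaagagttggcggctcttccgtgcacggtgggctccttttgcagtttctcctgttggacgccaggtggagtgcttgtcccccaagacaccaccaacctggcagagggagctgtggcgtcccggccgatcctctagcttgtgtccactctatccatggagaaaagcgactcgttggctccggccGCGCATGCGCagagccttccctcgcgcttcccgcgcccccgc
Sdha holds 3 NRF1 matches, the last ending at the base before the start site. Cox6a1 holds 2 NRF1 matches and 1 GABP match, Atp5g2 1 NRF1 match and Uqcr11 1 GABP match. The windows of Cox6b2 and Atp5g1, the genes of smallest p in complexes IV and V, hold neither. The RNA for both factors was measured: Nrf1 averaged 7.48 in heterozygous and 7.56 in wild type arrays (-0.081, SE 0.0997) and Gabpa 8.22 in heterozygous and 8.66 in wild type arrays (-0.44, SE 0.267), and neither passed (limma adjusted p = 0.729 and 0.529).

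In complex II all 4 genes had slightly higher heterozygous means, with differences between 0.059 and 0.15, a median of 0.14 and adjusted p between 0.576 and 0.822. Sdha, the flavoprotein that oxidises succinate and whose window carries the 3 NRF1 matches above, was at 9.65, 9.57, 9.78, 9.71 and 9.64 in heterozygous arrays, against 9.26, 9.57, 9.72, 9.52 and 9.59 in wild type arrays. Wild type 1 was the low array, and the other 9 lay within 0.3 of each other. The difference was 0.14 (SE 0.0996, limma adjusted p = 0.576), and 0.068 without wild type 1. Sdhc, a membrane anchor that helps bind ubiquinone, was at 10.11, 10.41, 10.26, 10.24 and 10.22 in heterozygous arrays, against 10.41, 10.27, 9.81, 9.91 and 10.08 in wild type arrays. Here wild type 3, 4 and 5 lay below every heterozygous array, with 3 and 4 the lowest. Wild type 1 and heterozygous 2 were the high arrays, and wild type 1 and 2 lay within the heterozygous range. Its difference was 0.15 (SE 0.124, limma adjusted p = 0.609), and 0.052 with the mean of the macrophage markers as covariate. The iron-sulfur subunit Sdhb averaged 10.16 ± 0.200 in heterozygous and 10.03 ± 0.317 in wild type arrays (SD, n = 5 each; 0.13, interval -0.22 to 0.49). The second anchor, Sdhd, had the smallest difference of the complex at 0.059 (interval -0.18 to 0.30), and its sign turned with the macrophage covariate, to -0.0097.

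In complex III, 6 of 9 genes had higher and 3 lower heterozygous means, with a median of 0.12 and a smallest adjusted p of 0.492. The electron carriers differed in sign. Uqcrfs1, the Rieske iron-sulfur protein, averaged 9.45 ± 0.0765 in heterozygous and 9.62 ± 0.209 in wild type arrays, a difference of -0.17 (SE 0.110, limma adjusted p = 0.544) and the lowest of all 46 genes. Wild type 2 and 5, at 9.82 and 9.86, were its high arrays, and the other 3 wild type arrays lay within the heterozygous range or within 0.05 of it. Cyc1, the heme protein that passes electrons to cytochrome c, averaged 9.76 in heterozygous and 9.66 in wild type arrays (0.10, interval -0.25 to 0.45). The matrix-facing core proteins Uqcrc1 and Uqcrc2 were at 0.26 (interval -0.16 to 0.67) and -0.049 (interval -0.22 to 0.12), so the second interval was the narrower.

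Of the small accessory subunits, 4 of 5 had a higher heterozygous mean. Uqcr11, among the smallest subunits of the complex, was at 10.33, 10.71, 10.26, 10.77 and 10.76 in heterozygous arrays, against 10.48, 10.60, 10.14, 9.94 and 10.12 in wild type arrays. Heterozygous 2, 4 and 5 were the 3 highest arrays, heterozygous 1 and 3 lay between the wild type values, and wild type 4 was lowest. The difference was 0.31 (SE 0.158, limma adjusted p = 0.492), and its second probe set gave 0.40. Uqcrq, a ubiquinone-binding accessory protein, was at 10.75, 10.87, 10.52, 10.86 and 11.18 in heterozygous arrays, against 10.74, 10.88, 10.54, 10.24 and 10.50 in wild type arrays. Heterozygous 5 was highest and wild type 4 lowest, with overlap in between. The difference was 0.25 (SE 0.148, limma adjusted p = 0.522), and without heterozygous 5 it was 0.17. Uqcr10 and Uqcrh, the hinge protein beside Cyc1, were at 0.15 (SE 0.114) and 0.12 (SE 0.0984). Uqcrb, which touches the ubiquinone site, was at -0.091 (SE 0.0855), with -0.093 to -0.086 over its 3 probe sets.

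In complex IV, 14 of 16 tested genes had higher and 2 lower heterozygous means (median 0.099), 10 lay above the median of all genes, and 6 turned sign with another scaling. Its nuclear subunits surround a catalytic core encoded by mitochondrial DNA, and several come in forms that differ by tissue. Of the forms found in most tissues, Cox6a1 averaged 12.36 ± 0.0776 in heterozygous and 12.37 ± 0.0311 in wild type arrays, and its values over all 10 arrays spanned only 0.187, the narrowest of the 46 genes. Cox5b, Cox6b1, Cox6c, Cox7b and Cox7a2 were at 0.028, 0.053, 0.052, 0.011 and 0.067, each with an SE of 0.0793 to 0.111. The signs of the first 4 turned under quantile normalization, cyclic loess or both, so no direction is given for them. Cox4i1, the subunit through which ATP inhibits the enzyme, averaged 11.59 in heterozygous and 11.46 in wild type arrays (0.12, SE 0.113), and Cox8a 10.80 in heterozygous and 10.65 in wild type arrays (0.14, SE 0.122). Cox7a2l, which joins complexes III and IV in supercomplexes, was the lowest of the complex at -0.11 (SE 0.104; limma adjusted p = 0.665), with -0.089 from its second probe set.

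Cox5a, a matrix-side subunit that binds a thyroid hormone metabolite, was the gene whose genotypes did not overlap. It was at 11.19, 11.13, 11.13, 11.36 and 11.24 in heterozygous arrays, against 10.92, 11.12, 11.13, 11.12 and 11.08 in wild type arrays. The lowest heterozygous arrays, 2 and 3, lay less than 0.01 above the highest wild type array, and wild type 1 stood below the rest. The difference of 0.14 (SE 0.0862) did not pass (limma adjusted p = 0.539), and it was 0.098 without wild type 1.

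The largest differences of the 46 genes, those of Cox6a2 and Cox6b2, were in forms known mainly from muscle or testis. Cox6b2, Cox8b and Cox8c were among the dimmest of these 46 genes. Cox8b and Cox8c averaged 4.97 and 5.12 over all arrays, little above the filter at 4.52. Cox6b2 averaged 5.76, at percentile 51.2 of all genes on the array. Cox6b2, the testis form of Cox6b, was at 5.84, 5.93, 5.82, 6.01 and 6.15 in heterozygous arrays, against 5.86, 5.61, 5.39, 5.44 and 5.55 in wild type arrays. All heterozygous arrays but 1 and 3 lay above all wild type arrays, and wild type 1 was the only wild type array to reach them. The difference was 0.38 (SE 0.112, unadjusted p = 0.00583, limma adjusted p = 0.349), a ratio of 1.30. Over the alternatives its adjusted p ran from 0.0743 with array weights to 0.663 without heterozygous 5, and its difference was 0.31 to 0.46. The ubiquitous partner Cox6b1 was at 12.28 in heterozygous and 12.23 in wild type arrays. Of the other testis forms, Cox8c was at 5.04, 5.09, 5.21, 5.06 and 5.69 in heterozygous arrays, against 5.19, 5.04, 4.82, 5.04 and 5.07 in wild type arrays. Heterozygous 5 stood above the other 9 arrays, and the difference was 0.19 (SE 0.135, limma adjusted p = 0.573). It was 0.068 without heterozygous 5, 0.095 after quantile normalization and 0.092 after cyclic loess. Cox7b2 averaged 3.43 in heterozygous and 3.30 in wild type arrays, below the filter. Of the muscle forms, Cox8b averaged 5.09 in heterozygous and 4.85 in wild type arrays (0.24, SE 0.131, and 0.13 after quantile normalization) and Cox7a1 7.84 in heterozygous and 7.62 in wild type arrays (0.22, SE 0.183). Cox4i2, the form known from lung and low oxygen, averaged 5.83 in heterozygous and 5.75 in wild type arrays (0.074, interval -0.15 to 0.29), and the sign of its difference turned with quantile normalization, to -9.80e-06.

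**Figure D2:**
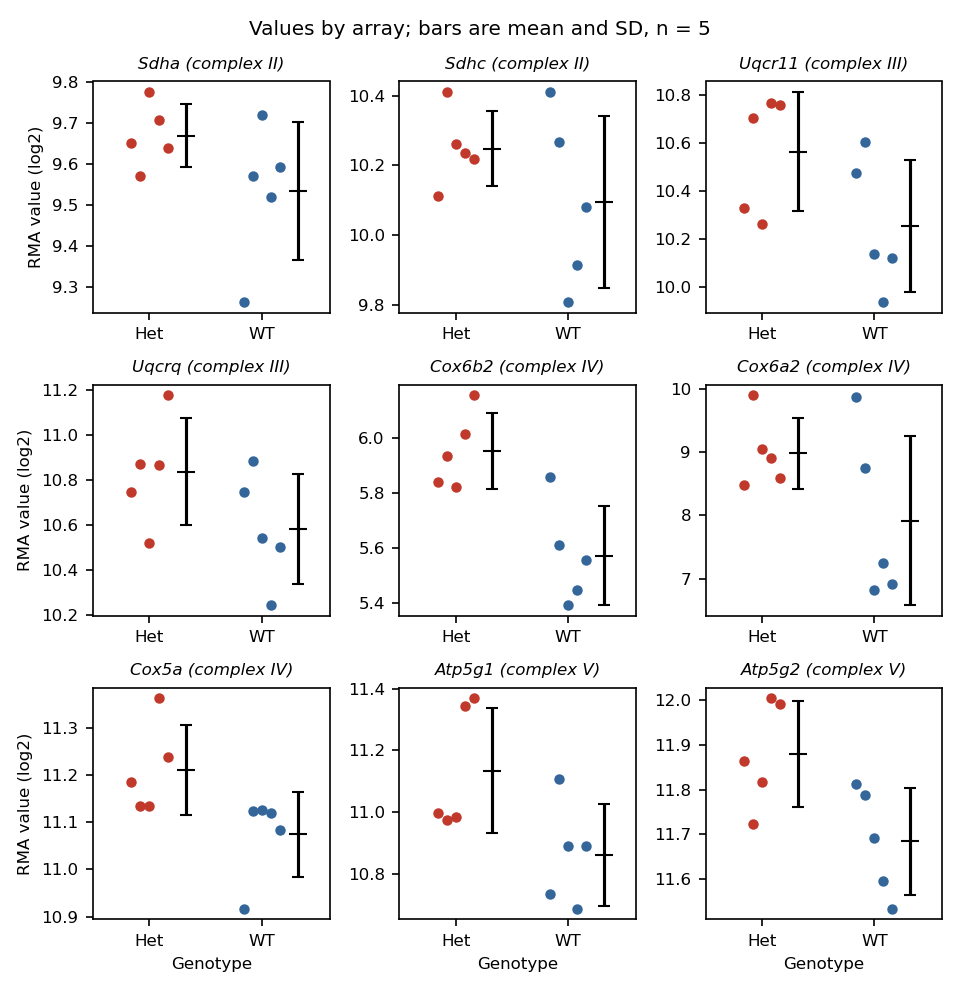
RMA log2 value on each array (points) of 9 genes, heterozygous left and wild type right in each panel, with bars for the mean and SD of 5 arrays and a separate y axis per gene. Only in Cox5a do all heterozygous arrays lie above all wild type arrays, by less than 0.01.

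Cox6a2, the heart and skeletal muscle form of Cox6a and a gene also known from mouse plasmacytoid dendritic cells, was the most variable gene of the set. It was at 8.48, 9.90, 9.05, 8.90 and 8.58 in heterozygous arrays, against 9.87, 8.75, 6.82, 7.24 and 6.91 in wild type arrays. Heterozygous 2 and wild type 1 were highest, and wild type 3, 4 and 5 formed a low set more than 1 unit below every other array. The mean difference of 1.06 (SE 0.559, a ratio of 2.09) did not pass (limma adjusted p = 0.494). Over all arrays Cox6a2 spanned 3.08 log2 units, where Cox6a1 spanned 0.187. Marker means of several other cell types moved across the same arrays. The plasmacytoid dendritic cell markers (4 of 5 found, all 4 above the filter) averaged 7.21, 8.33, 7.70, 6.84 and 6.79 in heterozygous arrays, against 6.61, 7.09, 5.95, 5.71 and 5.85 in wild type arrays. The monocyte and macrophage markers averaged 7.03, 9.52, 6.96, 6.73 and 6.96 in heterozygous arrays, against 9.04, 7.36, 5.60, 5.43 and 5.54 in wild type arrays. Wild type 3, 4 and 5 were the 3 lowest arrays in both marker lists as in Cox6a2, and heterozygous 2 was the highest in all 3, whereas wild type 1 was high in Cox6a2 and macrophage markers and not in the plasmacytoid dendritic cell markers. The neutrophil markers (13 of 13 above the filter) averaged 5.47 to 7.40 in heterozygous and 5.01 to 6.88 in wild type arrays, and the megakaryocyte markers (4 of 4 found) 5.25 to 7.79 in heterozygous and 4.93 to 7.54 in wild type arrays. Heterozygous 2 and wild type 1 were highest and wild type 3, 4 and 5 lowest in the means of both of these lists too. The megakaryocyte markers did not move together. Pf4 and Ppbp were highest in heterozygous 2, at 11.38 and 8.73, but Itga2b and Gp9 in heterozygous 5, at 5.75 and 5.77. The T and NK cell markers (4 of 8 found above the filter) averaged 5.999 to 6.411 in heterozygous and 5.465 to 5.891 in wild type arrays, with no overlap. Singly, Cd3e, Nkg7 and Il2rb did not overlap, where 2.28% of all genes did not, and these 3 were dim, with means of 4.73 to 5.31. Thy1, the brightest, did overlap, with wild type 1 at 8.97 above heterozygous 1 at 8.90. Cd3d, Cd3g, Ncr1 and Klrb1c were under the filter. The erythroid markers (6 of 6 found) averaged 5.01 to 5.24 in heterozygous and 4.85 to 5.20 in wild type arrays. Siglech, a receptor that defines plasmacytoid dendritic cells, ran over 6.79 to 9.18 in heterozygous and 5.34 to 7.22 in wild type arrays. With the mean of the macrophage markers as covariate the Cox6a2 difference was 0.48 (adjusted p = 0.333), without wild type 1 it was 1.55, and without wild type 1 and heterozygous 2 it was 1.32. The part of plasmacytoid dendritic cells or of the other cell types in it was not tested.

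**Figure D3:**
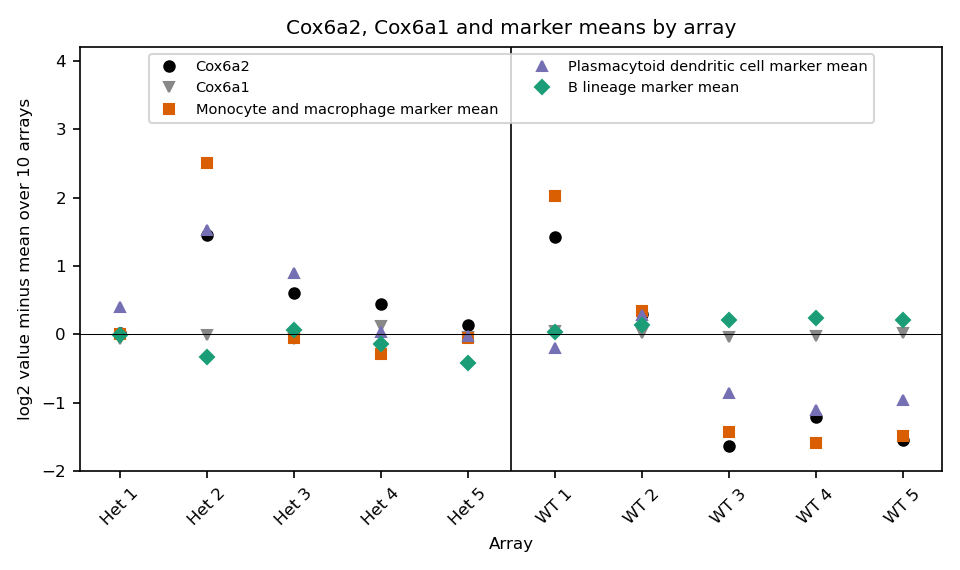
Log2 value minus its own mean over the 10 arrays (y axis) for Cox6a2, Cox6a1 and the mean of 3 marker lists, by array (heterozygous left, wild type right). Cox6a2 ranges from -1.63 in wild type 3 to 1.45 in heterozygous 2, and Cox6a1 stays between -0.061 and 0.13.

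In complex V, 14 of 17 genes had higher and 3 lower heterozygous means, with a median of 0.15, and 3 turned sign with another scaling. The catalytic head gave small positive differences for Atp5a1 (alpha) at 0.17 (SE 0.0980), Atp5b (beta) at 0.15 (SE 0.0974), Atp5d (delta) at 0.20 (SE 0.187) and Atp5e (epsilon) at 0.16 (SE 0.0992). Atp5c1, the gamma subunit that turns inside the head, was at 11.30, 11.27, 11.18, 11.25 and 11.25 in heterozygous arrays, against 11.20, 11.43, 11.14, 11.21 and 11.19 in wild type arrays. Wild type 2 was the highest array and wild type 3 the lowest. The difference was 0.014 (SE 0.0842), and its sign turned with quantile normalization and cyclic loess. None of the 5 head genes passed (limma adjusted p = 0.511 or more).

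The 3 genes for subunit c, whose copies form the rotating ring in the membrane and whose mature protein is the same, stood close together. Atp5g1 was at 11.00, 10.98, 10.99, 11.34 and 11.37 in heterozygous arrays, against 10.73, 11.11, 10.89, 10.69 and 10.89 in wild type arrays. Heterozygous 4 and 5 were above all other arrays, and the other 3 heterozygous arrays lay just under wild type 2 and above the rest. The difference was 0.27 (SE 0.122, unadjusted p = 0.0475, limma adjusted p = 0.449). Its second probe set gave 0.26. Atp5g2 was at 11.86, 11.72, 11.82, 12.00 and 11.99 in heterozygous arrays, against 11.81, 11.79, 11.69, 11.60 and 11.53 in wild type arrays. Heterozygous 2 alone fell among the wild type arrays. The difference was 0.20 (SE 0.0955, limma adjusted p = 0.474), with 0.20 to 0.23 over 3 probe sets. Atp5g3 was at 11.92, 11.72, 11.88, 11.90 and 12.03 in heterozygous arrays, against 11.32, 11.77, 11.81, 11.79 and 11.83 in wild type arrays. Wild type 1 lay far below the other 9 arrays, and the difference of 0.19 (SE 0.117, limma adjusted p = 0.539) was 0.089 without it. These 3 genes are read at separate probe sets but have near-identical stretches, and whether signal is shared among them was not tested.

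Of the stalk, Atp5o, which holds the head in place, was at 0.15 (SE 0.120), Atp5h at 0.048 and Atp5j at 0.021 (SE 0.0868 and 0.108). Both of the last turned sign with quantile normalization. Atp5pb, the b subunit, was the lowest of the complex at -0.12 (SE 0.0845), but its second probe set gave 0.066, so its direction depends on the probe set. Of the small membrane subunits, Atp5j2, Atp5k and Atp5mpl were at 0.18, 0.12 and 0.10, Atp5md, which holds pairs of the enzyme together, was at -0.11, and Atp5l at -0.0028, with -0.038 to -0.0028 over its 6 probe sets. All 5 had an adjusted p of 0.524 or more. Of all 47 genes, 12 had several probe sets, and 10 of these gave differences of 1 sign over them, the exceptions being Atp5pb and Cox7b. Probe sets were assigned to genes by annotated symbol alone. Whether a probe set reads the named gene itself or a similar sequence elsewhere in the genome was not tested.

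Arrays of 1 genotype differed from each other in how many of the genes lay above their own 10-array mean. Of the 46, there were 30, 32, 15, 37 and 36 above it in heterozygous 1 to 5, against 26, 38, 7, 8 and 15 in wild type 1 to 5. The high arrays were thus heterozygous 4 and 5 and wild type 2, and the low ones wild type 3 and 4, with heterozygous 3 and wild type 5 also low. The median deviation from a gene's own mean was 0.13 in heterozygous 5 and -0.12 in wild type 3, where over all genes tested it was 0.078 and -0.064. Wild type 3 was the lowest array for 12 genes and wild type 4 for 13. Wild type 1 was the lowest for 10, namely Sdha, Cox4i2, Cox5a, Cox7b, Cox8b, Atp5a1, Atp5b, Atp5g3, Atp5h and Atp5j. Heterozygous 5 was the highest for 15, followed by wild type 2 with 9. Without wild type 2, the high wild type array, the median difference of the 46 genes was 0.17, and without wild type 4 it was 0.083. In complex III, 9 of 9 genes were above their mean in wild type 2, and 1 of 9 in each of wild type 3 and heterozygous 3.

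**Figure D4:**
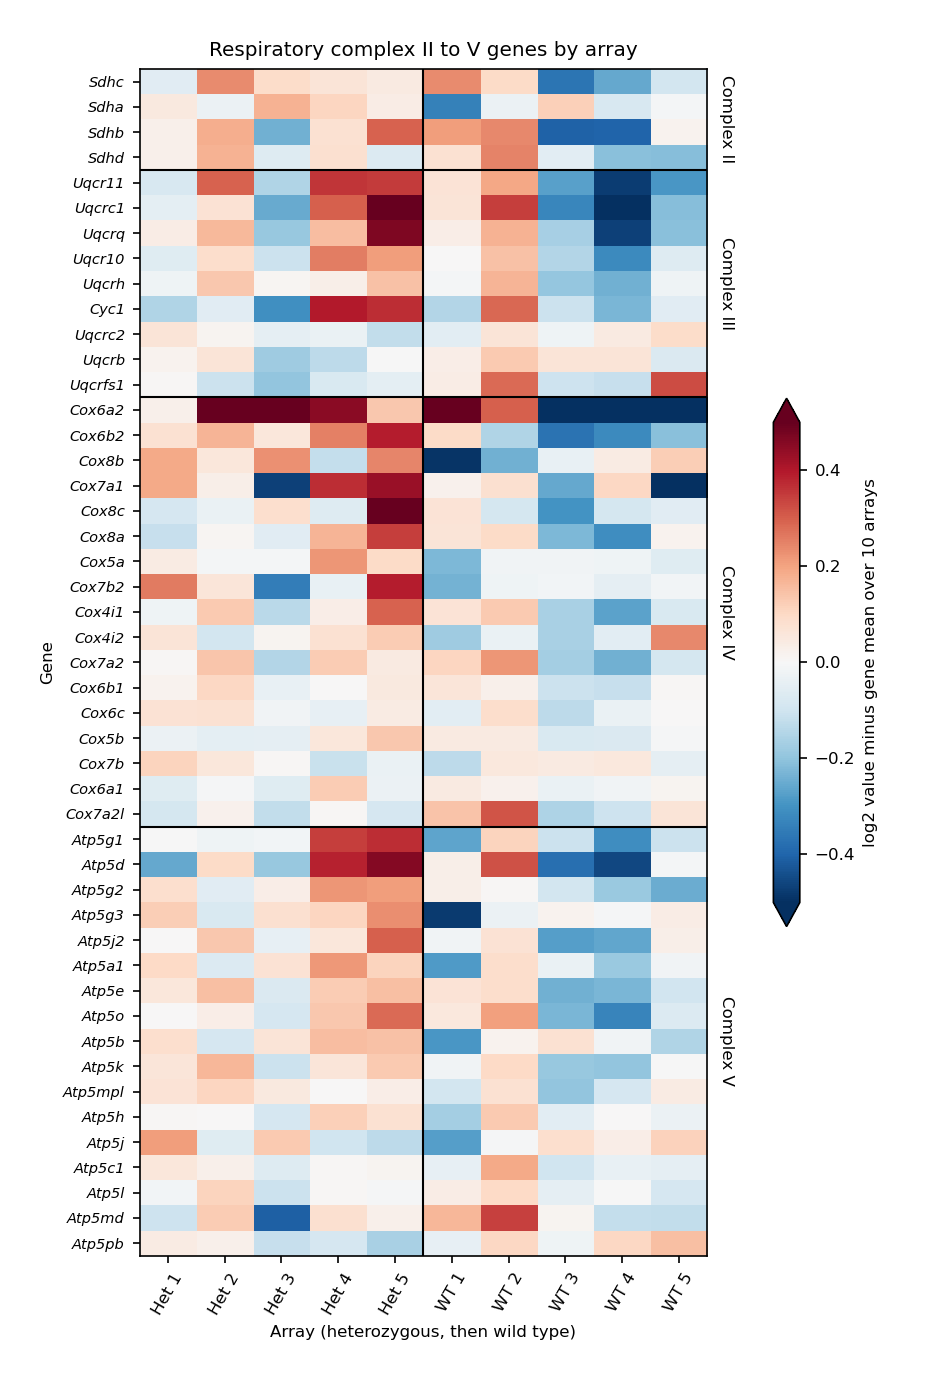
Log2 value minus the gene's own mean over 10 arrays (colour, clipped at 0.5) for all 47 genes, in rows by complex and by falling difference, with heterozygous arrays left of the line and wild type arrays right of it. Wild type 3 and 4 are mostly below the mean (7 and 8 of 46 tested genes above it) and wild type 2 mostly above it (38 of 46).

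Genes that work with these subunits were taken as lists: assembly factors of each complex, cytochrome c, the ATP synthase inhibitor, the mitochondrially encoded subunits and regulators of mitochondrial biogenesis. Of 43 such genes tested, 0 passed the adjusted threshold and 3 had an unadjusted p under 0.05 (6.98%, against 11.0% of all genes). A higher heterozygous mean was found for 21 (48.8%, against 61.3% of all genes), with a median difference of -0.013, beside 0.058 over all genes. The only mitochondrially encoded subunit found by a single annotated symbol was COX2 (Entrez name of subunit II of complex IV, not the cyclooxygenase). It carries the copper site that accepts electrons from cytochrome c. COX2 has 2 probe sets, and for it and the other listed genes only the brightest is given. Whether that probe set reads the mitochondrial gene or a similar sequence elsewhere was not tested. COX2 was at 12.51, 12.45, 12.37, 12.44 and 12.23 in heterozygous arrays, against 12.59, 12.56, 12.82, 12.85 and 12.50 in wild type arrays. Heterozygous arrays lay lower, with overlap of the 2 ranges. The difference of -0.27 (SE 0.102, unadjusted p = 0.0243) did not pass (limma adjusted p = 0.404). Cycs, the somatic cytochrome c, averaged 10.10 in heterozygous and 10.20 in wild type arrays (-0.10, SE 0.167), and Atpif1, the inhibitor of ATP synthase, 11.61 in heterozygous and 11.48 in wild type arrays (0.13, SE 0.124). The testis cytochrome c gene Cyct was below the filter.

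Of the complex IV assembly factors, 9 of 16 had a higher heterozygous mean (56.2%, against 61.3% of all genes). Coa3, which guards newly made subunit I, averaged 9.22 in heterozygous and 8.79 in wild type arrays (0.43, SE 0.192), Coa7 7.09 in heterozygous and 6.83 in wild type arrays (0.26, SE 0.115) and Coa6, a copper delivery factor, 7.24 in heterozygous and 7.46 in wild type arrays (-0.22, SE 0.112). The first 2 had an unadjusted p under 0.05 and none passed (limma adjusted p = 0.449 or more). Of the complex III factors, 4 of 6 were higher, the largest being Uqcc2, needed to make cytochrome b, at 0.30 (SE 0.195), with Uqcc3 at 0.16 and Bcs1l, which inserts the Rieske protein, at 0.073. Of the complex II factors 1 of 4 was higher, Sdhaf1, which helps insert the iron-sulfur clusters of Sdhb, at 0.21 (SE 0.190), while Sdhaf2, which adds the flavin to Sdha, was at -0.14 and Sdhaf4 at -0.11. Of the complex V factors, Tmem70, which helps build the ring of subunit c, was at 6.94, 7.15, 7.14, 7.05 and 6.91 in heterozygous arrays, against 7.34, 7.15, 7.25, 7.15 and 7.15 in wild type arrays. All 5 heterozygous values were below all 5 wild type values, by less than 0.01 at the closest, as for 0.809% of all genes. The difference was -0.17 (SE 0.0878, limma adjusted p = 0.492). Atpaf2 and Atpaf1, chaperones of the alpha and beta subunits, were at 0.17 and -0.091. Of the regulators, 5 of 11 were higher (45.5%, against the same 61.3%). Those of smallest p were Tfb2m, a factor of mitochondrial transcription, at -0.34 (SE 0.174), Yy1 at -0.30 (SE 0.166) and Gabpa at the value given above, all lower in heterozygous arrays and none past the threshold (limma adjusted p = 0.486 or more).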

How the data were processed

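Arrays were processed by the authors with RMA in Affymetrix Expression Console, per the submitters' processing notes, and the deposited table holds gene-level log2 values (35556 probe sets, 10 arrays, array medians 5.38 to 5.49). The sources used here give no versions. RMA quantile-normalizes arrays, which removes any shift shared by all genes. Symbols came from the platform annotation (21789 probe sets with 1 symbol, 1621 with several, 12146 not listed here). Per symbol the brightest probe set was kept, and genes whose mean did not exceed the 25th percentile were left out. Genotypes were compared with limma 3.58.1 (lmFit, eBayes; R 4.3.3) without covariates, and Hspa9 also with an exact two-sided permutation test over 252 splits. The fit was tested on simulated data. Genes given by array were the 2 of smallest p per complex and any that did not overlap or held an array far from the others. Genes, lists and rules were chosen with earlier results of these data known. Alternatives covered scaling, filter, probe set choice, variance model, array weights, macrophage markers, a replicate block and left-out arrays. The number of arrays limits precision.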

Additional observations from a re-analysis of the deposited data

Results flagged for a closer look

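Within a genotype, 4 of 94 sets of 5 arrays held an array whose gap to its nearest neighbour was large for the range of the group (Dixon's ratio above 0.710), where about 5% of such sets do so by chance. In the wild type group Atp5c1 was at 11.43 in wild type 2, above the next array at 11.21. Wild type 1 was low in both Atp5g3, at 11.32 with the next at 11.77, and Cox5a, at 10.92 with the next at 11.08. In the heterozygous group Cox8c was at 5.69 in heterozygous 5, above the next array at 5.21.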

How the results depend on the processing

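No gene of complexes II to V had an adjusted p under 0.05 in any of 22 alternative fits, or under 0.1 in the fit as reported. In the alternatives 1 to 5 had an unadjusted p under 0.05. The share of all genes at that level was counted only in the fit as reported (11.0%), so these counts have no background beside them. The median difference of each complex stayed above 0 in all these fits, at 0.044 to 0.17 for complex II, 0.073 to 0.19 for III, 0.054 to 0.14 for IV and 0.092 to 0.17 for V. So did the median over all genes tested, at 0.010 to 0.074. With the macrophage covariate the complex II median of 0.044 lay below the 0.054 over all genes. Over all genes the count past the adjusted threshold was 0 as reported, 2 at an adjusted p under 0.1, 137 with array weights and 26 without wild type 1 and heterozygous 2, and 0 to 22 when 1 array was left out (22 without wild type 1, 3 without heterozygous 2). The cause was not tested. The Hspa9 difference was -0.79 with array weights (adjusted p = 0.0381) and -0.84 to -0.62 with 1 array left out. Of 46 genes, 35 kept 1 sign in every fit that held them (23 fits, or 22 for Cox8b and Cox8c, which the stricter filter left out) and 9 turned with a scaling: Atp5c1, Atp5h, Atp5j, Cox4i2, Cox5b, Cox6a1, Cox6b1, Cox6c and Cox7b. The labels do not say whether replicate numbers pair the samples. Correlations of same-numbered deviations were -0.53, 0.21, 0.53, 0.043 and 0.31, which cannot settle it. With the replicate block 0 genes passed and Cox6b2 had an adjusted p of 0.555. These are 5 arrays per genotype of bulk sorted cells, RNA levels say nothing of protein or respiration, and dim genes such as Cox8b and Cox8c lie little above the filter.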
